A study of Homo sapiens with 9 samples.

Results

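The transcriptional intermediary factor 1 (TIF1) family, the 4 human genes TRIM24, TRIM28, TRIM33 and TRIM66, was followed by mRNA-seq through cells in which TRIM28 or PARP1 had been silenced. The 4 genes were taken by symbol from a deposited table of 61806 genes, in which each symbol has 1 row, and all 4 were among the 13562 genes that passed a filter on low counts. The question was whether transcripts of TRIM24, TRIM33 and TRIM66 change when their paralog TRIM28 is silenced. All libraries came from 786-O, an epithelial cell line of human kidney cancer of the clear cell type, in which the tumour suppressor VHL is inactive. There were 3 libraries in each of 3 groups: cells given TRIM28 siRNA (genotype label TRIM28 knockdown), cells given PARP1 siRNA (genotype label PARP1 knockdown) and cells given a negative control siRNA (genotype label wild type). Another label field speaks of transfected shRNA and the series text of parental cells, so it is unclear which reagent was used and what the controls received. The sources used here give neither the reagents' sequences nor the time of harvest. All 9 libraries carry the same batch label. Nothing in the labels says that replicates came from separate cultures, so each p-value reflects the spread among these libraries alone, which may be technical.

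The TIF1 proteins share B-boxes and a coiled coil, parts of the tripartite motif that gives TRIM genes their name. They also share a PHD finger beside a bromodomain at the carboxy terminus. TRIM24, TRIM28 and TRIM33 carry the amino-terminal RING finger of the motif as well. TRIM28 (also KAP1 or TIF1 beta) is a corepressor carried to DNA by KRAB zinc finger proteins, where it gathers the histone methyltransferase SETDB1, heterochromatin protein 1 and the NuRD complex. TRIM24 (TIF1 alpha) is a coregulator of nuclear receptors and a ubiquitin ligase for p53, TRIM33 (TIF1 gamma) restrains SMAD4 in transforming growth factor beta signalling, and TRIM66 (TIF1 delta) is best known from mouse germ cells. In mouse liver, TRIM24, TRIM28 and TRIM33 proteins have been found in shared complexes.

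The coding sequences of the family were compared because reads shared between paralogs would blur their counts. Whether a reagent against TRIM28 could match a paralog was not tested. The reagents' sequences are not given, and the runs below leave out untranslated bases. The longest identical run between the TRIM28 coding sequence and that of a paralog was 14 bases with TRIM24, 12 bases with TRIM33 and 14 bases with TRIM66, in the longest coding transcript of each gene in GENCODE 29. The closest pair, TRIM24 and TRIM33, shared 24 bases. The runs are shown in capitals within 15 bases of lower-case flank on each side, for the pairs that hold the 2 longest runs with TRIM28 and for the closest pair. Coordinates are those of the capitals in GRCh38.
TRIM28 beside TRIM24, exon 1, chr19:58544788-58544801, plus strand: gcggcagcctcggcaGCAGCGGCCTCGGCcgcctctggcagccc
TRIM24 beside TRIM28, exon 1, chr7:138460585-138460598, plus strand: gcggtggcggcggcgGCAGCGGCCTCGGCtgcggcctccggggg
TRIM28 beside TRIM66, exon 12, chr19:58549105-58549118, plus strand: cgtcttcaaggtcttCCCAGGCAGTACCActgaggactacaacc
TRIM66 beside TRIM28, exon 16, chr11:8625091-8625104, minus strand: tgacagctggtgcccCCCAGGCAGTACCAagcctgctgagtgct
TRIM24 beside TRIM33, exon 16, chr7:138580602-138580625, plus strand: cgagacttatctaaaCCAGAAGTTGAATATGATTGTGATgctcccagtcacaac
TRIM33 beside TRIM24, exon 16, chr1:114402820-114402843, minus strand: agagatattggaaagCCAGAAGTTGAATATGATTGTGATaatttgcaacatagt
Over aligned coding bases, TRIM28 was 56.0% identical to TRIM24, 56.5% to TRIM33 and 58.8% to TRIM66, and TRIM24 was 64.3% identical to TRIM33. None of the windows of 50 bases along the 4 transcripts occurred in another family member. For TRIM28 and TRIM33, 0 such windows occurred in a transcript of any other gene, against 81 of 8361 windows for TRIM24 and 84 of 10639 for TRIM66.

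Total counts ran from 11963110 to 20224374 per library. PARP1, the target of the other reagent, stood at 93.8 ± 0.556 CPM in TRIM28 knockdown, 5.52 ± 1.19 CPM in PARP1 knockdown and 177 ± 23.7 CPM in control (SD, n = 3 each). It was thus lower than control in TRIM28 knockdown too, by 0.92 on the log2 scale (SE 0.14, adjusted p = 3.61e-05, edgeR quasi-likelihood test). With trends of gene length and GC content removed, that log2 fold change was -0.49 (adjusted p = 0.00403, same test). The renal marker PAX8 averaged 53.8 FPKM in control, while LRP2, the megalin of proximal tubule, was at 0 there and had 2 counts in all libraries together. PTPRC and CD3E of blood cells were at 0 in all 9 libraries, while CD68 had 226 counts in all libraries together. CD68 averaged 0.843 FPKM in TRIM28 knockdown, 0.603 in PARP1 knockdown and 0.723 in control. The summed FPKM of 6 blood markers, CD68 among them, was 0.6 to 1.12 in TRIM28 knockdown, 0.47 to 0.73 in PARP1 knockdown and 0.4 to 0.97 in control. The libraries also differed in how a gene's level moved with its summed exon length. The slope of log2 level per doubling of length was between -0.0244 and -0.00085 in TRIM28 knockdown, between -0.167 and -0.0968 in PARP1 knockdown, and 0.203, 0.175 and 0.0725 in control replicates 1, 2 and 3. TRIM24, TRIM33 and TRIM66 are long, at 9301, 9604 and 11752 bases, and TRIM28 is 4306 bases, so that slope is given again beside the results it touches.

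TRIM28 (ENSG00000130726, chr19:58544064-58550722, plus strand) was the highest of the 4 genes per length in every library, in TRIM28 knockdown too, where it was far lower than in control. It was counted 706, 686 and 962 times in TRIM28 knockdown, 6650, 4976 and 4326 times in PARP1 knockdown, and 6562, 7053 and 8272 times in control. On the FPKM scale these levels were 10.3, 12.4 and 13.7 in TRIM28 knockdown, 98.8, 84.4 and 84.0 in PARP1 knockdown, and 84.5, 89.7 and 94.99 in control. Every TRIM28 knockdown library lay below every other library, and PARP1 knockdown and control overlapped on this scale. TRIM28 fell by 2.73 on the log2 scale in TRIM28 knockdown against control (SE 0.14, adjusted p = 7.68e-13, edgeR quasi-likelihood test with Benjamini-Hochberg adjustment over 13562 genes). What remained was 15.1% of the control mean in CPM scaled by trimmed mean of M-values (TMM) factors. These are bulk libraries, so fewer cells that carry TRIM28 RNA and less of it per cell cannot be told apart. In control, TRIM28 stood above 96.0% of tested genes by FPKM, TRIM24 above 21.3%, TRIM33 above 19.9% and TRIM66 above 12.7%.

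None of the 3 paralogs passed the threshold of an adjusted p below 0.05 in TRIM28 knockdown against control, and all of their log2 fold changes were below 0. Of all tested genes, 27.8% passed, 10.3% as higher and 17.5% as lower. With library totals as the scaling, 3.34% of tested genes were higher and 21.1% lower, and the paralogs, at -0.70 for TRIM24, -0.88 for TRIM33 and -0.44 for TRIM66, again did not pass.

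TRIM24 (ENSG00000122779, chr7:138460259-138589996, plus strand), the nuclear receptor coregulator, was counted 60, 35 and 46 times in TRIM28 knockdown and 117, 101 and 66 times in control. Scaled, these were 3.74, 2.79 and 2.77 CPM in TRIM28 knockdown and 5.63, 4.89 and 3.04 CPM in control. The groups overlapped, because control replicate 3 lay between the TRIM28 knockdown libraries. The log2 fold change was -0.54 ± 0.30 (SE, n = 3 libraries per group), with a 95% interval from -1.15 to 0.07 (adjusted p = 0.179, edgeR).

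TRIM33 (ENSG00000197323, chr1:114392790-114511203, minus strand), the SMAD4 regulator, was counted 48, 24 and 47 times in TRIM28 knockdown and 107, 99 and 63 times in control. Scaled, these were 2.99, 1.91 and 2.83 CPM in TRIM28 knockdown and 5.15, 4.79 and 2.90 CPM in control. Again control replicate 3 was the low control library and overlapped the TRIM28 knockdown libraries. The log2 fold change was -0.72 ± 0.30 (SE, n = 3 libraries per group), with a 95% interval from -1.33 to -0.10 (adjusted p = 0.0723, edgeR). Without control replicate 3, TRIM33 passed the threshold (-0.90, adjusted p = 0.0219), and it also passed without PARP1 knockdown replicate 1 (-0.72, adjusted p = 0.0445), while the adjusted p ran from 0.0219 to 0.663 over all alternatives.

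TRIM66 (ENSG00000166436, chr11:8612037-8682694, minus strand) was counted 43, 35 and 42 times in TRIM28 knockdown and 68, 75 and 61 times in control. Scaled, these were 2.68, 2.79 and 2.53 CPM in TRIM28 knockdown and 3.27, 3.63 and 2.81 CPM in control. The groups did not overlap, though the highest TRIM28 knockdown library lay just below the lowest control library. The log2 fold change was -0.28 ± 0.30 (SE, n = 3 libraries per group), with a 95% interval from -0.90 to 0.34 (adjusted p = 0.514, edgeR).

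**Figure D1:**
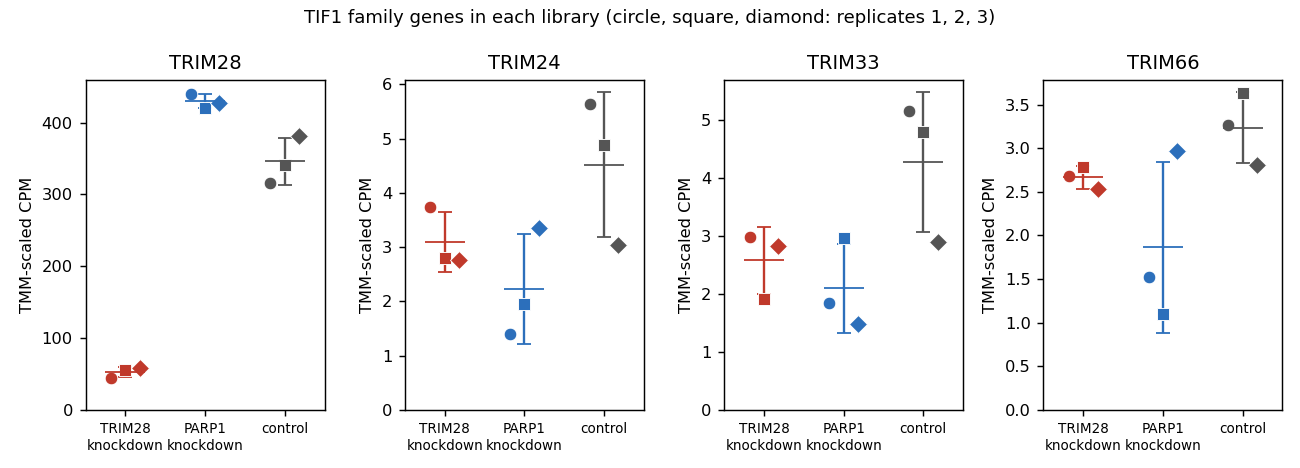
TMM-scaled CPM of each TIF1 gene (vertical axes, starting at 0 and differing between panels) in the 3 libraries of TRIM28 knockdown, PARP1 knockdown and control, with the group mean and SD. TRIM28 lies between 44.0 and 58.0 CPM in TRIM28 knockdown, and in control the diamond of replicate 3 is the lowest library for TRIM24, TRIM33 and TRIM66.

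Counts of this size limit precision. The lowest of these counts, 24 for TRIM33 in TRIM28 knockdown replicate 2, has an exact Poisson 95% interval of 15.4 to 35.7, which covers counting error only. The upper ends of the intervals above correspond to 1.05-fold for TRIM24, 0.93-fold for TRIM33 and 1.27-fold for TRIM66, relative to control. Over the alternatives tried, the highest upper end was 1.48-fold for TRIM24, 1.29-fold for TRIM33 and 1.61-fold for TRIM66, each with gene length and GC trends removed and a replicate block. These ends are the largest rises that the intervals hold, and not the smallest rises that could be detected. For TRIM33 the upper end of 0.93-fold lies below equality, so the interval with TMM factors holds no rise.

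Per length, nearly all of the family's RNA was TRIM28, and so was nearly all of its loss. The summed FPKM of TRIM24, TRIM33 and TRIM66 was 0.96, 0.71 and 0.82 in TRIM28 knockdown and 1.64, 1.5 and 0.93 in control, with control replicate 3 inside the range of TRIM28 knockdown. TRIM28 was lower by 77.6 FPKM in TRIM28 knockdown than in control, a difference 57.1 times the summed FPKM of the paralogs in control. TRIM28 made up 93.5% ± 1.71 of the family's FPKM in TRIM28 knockdown and 98.5% ± 0.458 in control (SD, n = 3 each). The ratio of TRIM28 to its paralogs together was 15 ± 3.66 in TRIM28 knockdown and 71.1 ± 27.1 in control (SD, n = 3 each). TRIM24 and TRIM33 lay within each other's spread in every group, at 0.333 ± 0.0666 and 0.270 ± 0.0700 FPKM in TRIM28 knockdown, 0.210 ± 0.0889 and 0.197 ± 0.0702 FPKM in PARP1 knockdown, and 0.547 ± 0.179 and 0.500 ± 0.159 FPKM in control (SD, n = 3 each). TRIM66 was below both in group means, at 0.227 ± 0.00577 FPKM in TRIM28 knockdown, 0.140 ± 0.0656 FPKM in PARP1 knockdown and 0.310 ± 0.0458 FPKM in control (SD, n = 3 each). Its libraries overlapped those of TRIM33 in every group. They lay below every TRIM24 library in TRIM28 knockdown, overlapped TRIM24 in PARP1 knockdown, and in control met it at 0.35 FPKM.

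**Figure D2:**
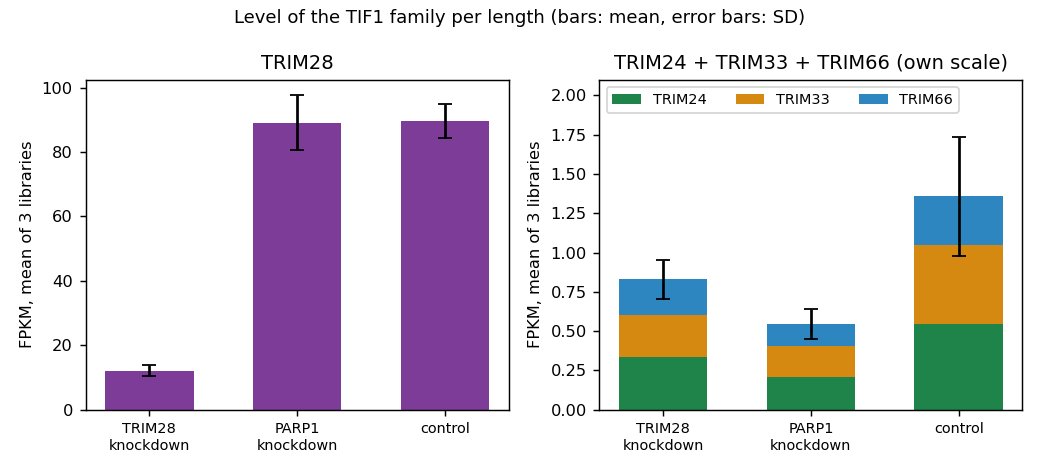
FPKM of TRIM28 (left) and of TRIM24, TRIM33 and TRIM66 stacked (right, on its own scale), as means of 3 libraries per group with the SD of TRIM28 and of the stacked sum. TRIM28 averages 12.1 FPKM in TRIM28 knockdown and 89.7 FPKM in control, while the paralog sum averages 0.83 FPKM in TRIM28 knockdown and 1.36 FPKM in control.

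In PARP1 knockdown, TRIM24, TRIM33 and TRIM66 all fell, beside 59.3% of tested genes that passed the threshold there, 27.1% as higher and 32.2% as lower. This comparison shares its control libraries with the one above, so low or high control libraries enter both. TRIM24 stood at 1.39, 1.95 and 3.36 CPM in PARP1 knockdown, against 5.63, 4.89 and 3.04 CPM in control. Its PARP1 knockdown replicate 3 lay above control replicate 3, so the groups overlapped, and the log2 fold change was -1.05 ± 0.32 (SE, n = 3 libraries per group, adjusted p = 0.00604, edgeR). TRIM33 stood at 1.85, 2.96 and 1.48 CPM in PARP1 knockdown, against 5.15, 4.79 and 2.90 CPM in control, and fell by 1.02 on the log2 scale (SE 0.31, adjusted p = 0.00678, edgeR). Here PARP1 knockdown replicate 2 was the high library and lay just above control replicate 3. TRIM66 stood at 1.52, 1.10 and 2.97 CPM in PARP1 knockdown, against 3.27, 3.63 and 2.81 CPM in control, and fell by 0.83 (SE 0.32, adjusted p = 0.0301, edgeR). Its groups overlapped too, as PARP1 knockdown replicate 3 lay above control replicate 3. Without control replicate 1 the calls ended for TRIM24 (-0.82, adjusted p = 0.0535) and TRIM33 (-0.83, adjusted p = 0.0511). The TRIM66 call ended without control replicate 1 or 2 and without PARP1 knockdown replicate 1 or 2 (-0.57 to -0.78).

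TRIM28 itself moved with the scaling in PARP1 knockdown. It stood at 440, 421 and 428 TMM-scaled CPM in PARP1 knockdown, against 316, 341 and 381 CPM in control, without overlap, and was higher by 0.31 on the log2 scale (SE 0.13, adjusted p = 0.0433, edgeR). Scaled by library totals instead, the difference was -0.01 (adjusted p = 0.946), and with length and GC trends removed it was -0.22 (adjusted p = 0.0819). The scaling also moved the median log2 fold change of all tested genes in PARP1 knockdown, which was -0.07 with TMM factors and -0.39 with library totals. TRIM28 also lost its call without control replicate 1 (0.29), control replicate 2 (0.34), PARP1 knockdown replicate 2 (0.33) or TRIM28 knockdown replicate 2 (0.31).

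**Figure D3:**
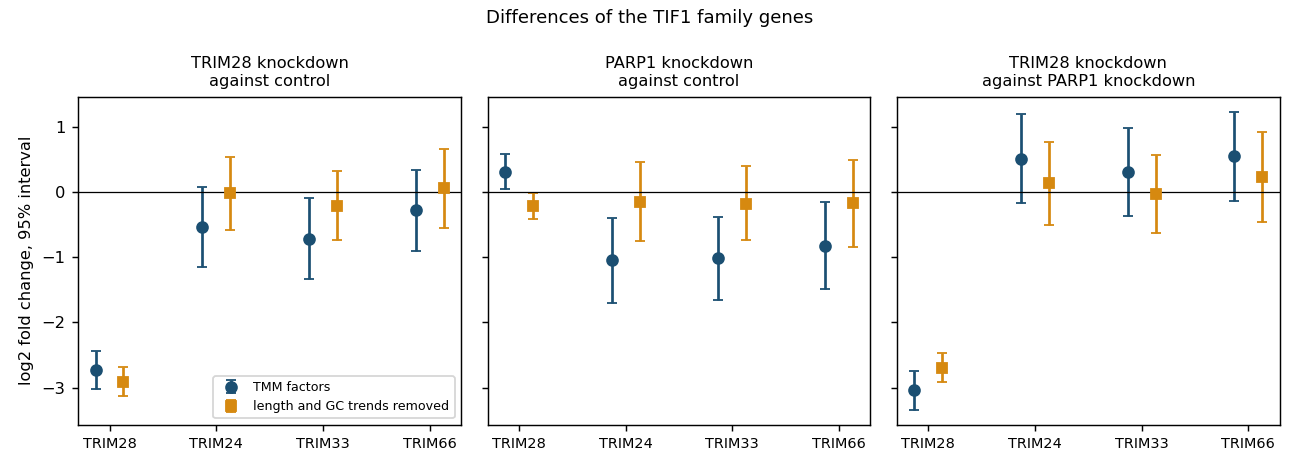
Log2 fold changes with 95% intervals for the 4 TIF1 genes in 3 comparisons, with TMM factors (circles) and with gene length and GC trends removed (squares). In the left panel TRIM28 is at -2.73 and -2.91 while the paralogs lie between -0.72 and 0.06, and in the middle panel the squares of the paralogs, at -0.15 to -0.18, have intervals that cross 0.

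Long genes as a whole were lower in both knockdowns. When tested genes were split by exon length into 10 classes of equal size, TRIM24 and TRIM33 were in the ninth and TRIM66 in the tenth, the longest. In PARP1 knockdown the median log2 fold change was -0.56 in the ninth class, where 48.7% of genes were lower, and -0.67 in the longest, where 53.4% were lower. In TRIM28 knockdown these medians were -0.31 and -0.39, with 28.7% and 34.6% of genes lower. With length and GC trends removed from each library, the log2 fold changes in PARP1 knockdown were -0.15 for TRIM24, -0.18 for TRIM33 and -0.17 for TRIM66 (adjusted p = 0.708, 0.62 and 0.688, edgeR), and none passed, beside 23.9% of tested genes that were higher and 22.6% that were lower under that setting. In TRIM28 knockdown they were -0.02, -0.21 and 0.06 (adjusted p = 0.97, 0.605 and 0.919, edgeR), so that of TRIM66 changed sign, beside 10.9% of tested genes higher and 10.5% lower. TRIM28, in the fifth class, kept a log2 fold change of -2.91 in TRIM28 knockdown under that setting (adjusted p = 8.94e-12, edgeR).

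**Figure D4:**
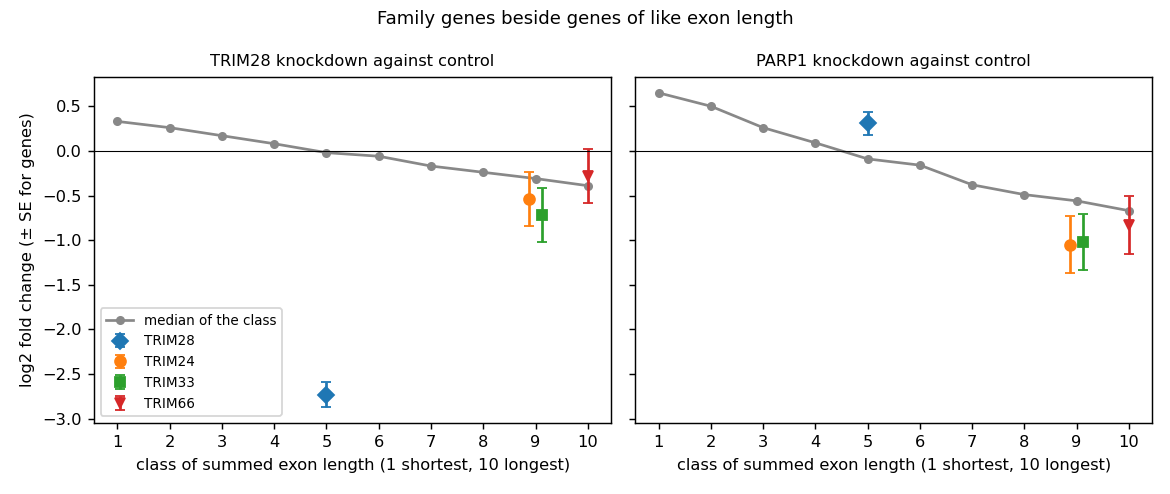
Log2 fold change of the 4 TIF1 genes with SE, placed at their class of summed exon length (horizontal axis, 1 shortest to 10 longest), beside the median of all tested genes in each class (grey line). The grey line runs from 0.33 to -0.39 in TRIM28 knockdown and from 0.65 to -0.67 in PARP1 knockdown, and TRIM28 at -2.73 is the gene far from it.

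Compared directly, TRIM28 knockdown and PARP1 knockdown differed in TRIM28 and in no paralog past the threshold, beside 25.1% of tested genes that passed. TRIM28 was lower by 3.04 on the log2 scale in TRIM28 knockdown than in PARP1 knockdown (SE 0.14, adjusted p = 3.66e-14, edgeR). The differences were 0.51 for TRIM24 with a 95% interval from -0.17 to 1.20, 0.30 for TRIM33 with one from -0.37 to 0.98, and 0.55 for TRIM66 with one from -0.14 to 1.23 (adjusted p = 0.271, 0.54 and 0.245, edgeR). Those intervals include both equality and a difference of 2.29-fold for TRIM24, 1.97-fold for TRIM33 and 2.35-fold for TRIM66.

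Some neighbouring genes moved in the direction of their family member and others did not. Beside TRIM24, CREB3L2 (-1.07 ± 0.15), an endoplasmic reticulum stress transcription factor, and KIAA1549 (-1.02 ± 0.18) fell in TRIM28 knockdown, at 458172 and 241384 bases away. TRIM24 itself did not pass there. Both neighbours fell in PARP1 knockdown too (-1.41 ± 0.15 and -1.45 ± 0.19). With length and GC trends removed they passed in TRIM28 knockdown (-0.71 and -0.62) and in PARP1 knockdown (-0.68 and -0.69). Beside TRIM33, BCAS2, a splicing factor, fell in PARP1 knockdown (-0.70 ± 0.19, adjusted p = 0.00251, edgeR) and did not pass in TRIM28 knockdown (-0.44 ± 0.18, adjusted p = 0.076), where it did pass with library totals (-0.60) and with length and GC trends removed (-0.52). On the other side OLFML3 passed in neither (-0.19 and 0.69). On the side of TRIM66 away from its start, the kinase STK33 fell in TRIM28 knockdown (-1.58 ± 0.56, adjusted p = 0.0367, edgeR), with 87 counts in all libraries together. It did not pass with length and GC trends removed (-1.14, adjusted p = 0.134), nor in PARP1 knockdown (-1.29 ± 0.56, adjusted p = 0.0517), where it passed with library totals (-1.61). TRIM66 starts 93 bases from RPL27A, a gene of the large ribosomal subunit transcribed the opposite way, and the bases between the deposited starts of both genes are shown because they are all that separates the pair. The stretch is chr11:8682695-8682787, read on the minus strand from RPL27A towards TRIM66, from RefSeq on GRCh38.p14, with a GC content of 71.0% and 11 CG dinucleotides.
Between RPL27A and TRIM66: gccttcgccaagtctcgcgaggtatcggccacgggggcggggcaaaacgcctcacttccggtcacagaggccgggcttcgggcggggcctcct
RPL27A stood at 2250 ± 253 CPM in TRIM28 knockdown and 1490 ± 135 CPM in control (SD, n = 3 each), and rose by 0.59 ± 0.14 on the log2 scale (adjusted p = 0.0036, edgeR). In PARP1 knockdown it stood at 2990 ± 544 CPM (SD, n = 3) and rose by 1.00 ± 0.14 (adjusted p = 1.82e-06, edgeR), where TRIM66 fell. With length and GC trends removed, RPL27A and TRIM66 were at 0.85 and 0.06 in TRIM28 knockdown and at 1.59 and -0.17 in PARP1 knockdown, and TRIM66 passed in neither. Downstream of TRIM28, CHMP2A of the ESCRT-III membrane remodelling complex lies 729 bases away on the opposite strand. It stood at 84.1 ± 5.36 CPM in TRIM28 knockdown and 63.5 ± 6.41 CPM in control (SD, n = 3 each), and rose by 0.40 ± 0.14 (adjusted p = 0.0295, edgeR), but did not pass with library totals (0.25) or with length and GC trends removed (0.24). In PARP1 knockdown it rose by 0.74 (adjusted p = 5.65e-05, edgeR), and passed with library totals (0.40) and with those trends removed (0.47). On the other side of TRIM28, ZBTB45 did not pass in TRIM28 knockdown (0.34 ± 0.18) and rose in PARP1 knockdown (0.72 ± 0.18), but not with library totals (0.40) or with those trends removed (-0.10). RPL27A kept its rise under both settings in both knockdowns (0.43 to 1.59). The annotated genes with a symbol that overlap a family member (MIR6807 in TRIM28, RPS3AP28 in TRIM24, EIF2S2P5 and a Y RNA in TRIM33) had 0 counts in all libraries, and overlapping genes without a symbol had 0 counts in TRIM33 and 3 in TRIM66.

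Among the silencing machinery that TRIM28 recruits, 11 of 22 tested genes fell in TRIM28 knockdown, 0 rose and 11 did not pass, with a median log2 fold change of -0.43 beside -0.02 over all tested genes, of which 17.5% were lower and 10.3% higher. The smallest adjusted p belonged to CHD3, a NuRD helicase at 49.3 ± 3.63 CPM in TRIM28 knockdown and 117 ± 21.7 CPM in control (SD, n = 3 each), MORC2, an ATPase that works with the HUSH complex (-1.41 ± 0.17), and the NuRD helicase CHD4 (-1.35 ± 0.20). In PARP1 knockdown, 14 fell and 2 rose, with a median of -0.70 beside -0.07 over all tested genes, of which 32.2% were lower and 27.1% higher. MORC2 (-2.07 ± 0.18), CHD3 (-1.93 ± 0.15) and CBX1, a heterochromatin protein 1 (-1.83 ± 0.17), fell there. Of those that rose, SUMO2, a small modifier joined to proteins, had a log2 fold change of 0.35 ± 0.13 and did not pass with library totals (0.01). In that comparison 1 gene of the list rose without PARP1 knockdown replicate 2 or without control replicate 2. After removal of length and GC trends, it held 8 lower and 3 higher in TRIM28 knockdown and 10 lower and 5 higher in PARP1 knockdown, with medians of -0.33 and -0.27, beside 10.5% of all tested genes lower and 10.9% higher in TRIM28 knockdown and 22.6% lower and 23.9% higher in PARP1 knockdown. The median exon length of its tested genes was 8614 bases, in the eighth length class, where 26.5% of genes were lower in TRIM28 knockdown and 46.0% in PARP1 knockdown. Without control replicate 1 or without control replicate 2, 7 were lower in TRIM28 knockdown. Over all tested genes, 1225 and 1404 were lower then, against 2374 with all libraries. Of the list, 2 were higher in TRIM28 knockdown without PARP1 knockdown replicate 1 and 1 without control replicate 3. Over all tested genes, 2059 and 2167 were higher then, against 1394 with all libraries.

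TRIM28 also acts as a ubiquitin ligase with MAGE proteins and is switched by phosphorylation after DNA breaks. In TRIM28 knockdown, 12 genes of that group were tested, of which 3 fell and 2 rose, with a median of 0.10, beside 17.5% lower and 10.3% higher over all tested genes. PPP1CB, a catalytic subunit of protein phosphatase 1 (-0.95 ± 0.17), PRKAA1, the AMPK subunit that MAGE-bound TRIM28 marks for degradation (-0.92 ± 0.20), and the checkpoint kinase CHEK1 (-0.59 ± 0.19) fell, and CHEK1 did not pass with length and GC trends removed (-0.26). PPP1CA (0.48 ± 0.14) and PPP4C (0.36 ± 0.13), both phosphatase catalytic subunits, rose, and neither passed with length and GC trends removed (0.28 and 0.03) or without TRIM28 knockdown replicate 2, control replicate 1 or control replicate 2, and 1 of them passed without TRIM28 knockdown replicate 1 or 3 or PARP1 knockdown replicate 2. In PARP1 knockdown, 5 fell and 2 rose with a median of -0.20, beside 32.2% of all tested genes lower and 27.1% higher, among them PPP1CB (-1.37 ± 0.17), PRKAA1 (-1.33 ± 0.21), PPP1CA (0.94 ± 0.14) and PPP4C (0.70 ± 0.13). PPP4C did not pass with length and GC trends removed (0.04). Under that removal 1 of the 12 was higher and 2 were lower in TRIM28 knockdown, beside 10.9% higher and 10.5% lower over all tested genes. In PARP1 knockdown 5 were higher and 5 lower then, beside 23.9% higher and 22.6% lower over all tested genes. MAGEA3 fell in PARP1 knockdown as well (-0.93 ± 0.15), with reads that near-identical MAGE genes may share.

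Nuclear receptors and coregulators around TRIM24 had 3 of 10 tested genes lower, 0 higher and 7 not passing in TRIM28 knockdown, with a median of -0.22, beside 17.5% lower, 10.3% higher and a median of -0.02 over all tested genes. These were VDR, the vitamin D receptor (-0.81 ± 0.25), the corepressor NCOR1 (-0.69 ± 0.20) and the coactivator NCOA1 (-1.04 ± 0.36). The groups overlapped for NCOA1, at 1.43 ± 0.367 CPM in TRIM28 knockdown and 2.92 ± 1.19 CPM in control (SD, n = 3 each). With length and GC trends removed VDR alone was lower (-0.79), beside 10.5% of all tested genes. Without TRIM28 knockdown replicate 3, control replicate 1 or control replicate 2, 0 of the 10 were lower, and without TRIM28 knockdown replicate 1, 1 was. Over all tested genes, the 2374 lower became 1681, 1225, 1404 and 1883 without those libraries, in that order. In PARP1 knockdown 4 fell and 2 rose with a median of -0.29, beside 32.2% lower, 27.1% higher and a median of -0.07 over all tested genes. VDR was at -1.70 ± 0.27, NCOA1 at -1.76 ± 0.40 and NCOR1 at -0.92 ± 0.20, and the retinoid receptors RXRB and RARG were at 0.55 ± 0.13 and 0.43 ± 0.13. NCOR1 was at 0.08 and NCOA1 at -0.87 with length and GC trends removed, and neither passed. RXRB and RARG did not pass then, at 0.14 and 0.11, nor with library totals, at 0.22 and 0.10. Of retinoic acid response genes, which retinoic acid receptors control, 5 of 10 in the table were tested. None passed in TRIM28 knockdown (median 0.33), where STRA6, a retinol transporter, had the smallest adjusted p (0.44 ± 0.27, adjusted p = 0.24, edgeR). CRABP2, a retinoic acid binding protein, was the 1 that rose in PARP1 knockdown (0.56 ± 0.24), and it did not pass with library totals (0.24) or with length and GC trends removed (-0.25), where its sign turned, nor without PARP1 knockdown replicate 3, TRIM28 knockdown replicate 1 or 2, or control replicate 1 or 2.

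SMAD signalling genes around TRIM33 had 7 of 13 tested genes lower and 0 higher in TRIM28 knockdown, with a median of -0.58, beside 17.5% of all tested genes lower and 10.3% higher. Their median exon length was 7213 bases, in the eighth length class, where 26.5% of genes were lower in TRIM28 knockdown and 46.0% in PARP1 knockdown. The count of 7 was 3 without TRIM28 knockdown replicate 2 or 3 or without control replicate 1 or 2. Over all tested genes, the 2374 lower became 1589, 1681, 1225 and 1404 without those libraries, in that order. SMAD4, the common SMAD that TRIM33 restrains, stood at 4.70 ± 0.679 CPM in TRIM28 knockdown and 11.5 ± 3.13 CPM in control (SD, n = 3 each), a log2 fold change of -1.29 ± 0.23. The receptor TGFBR2 (-0.98 ± 0.16) and the ubiquitin ligase SMURF1 (-0.72 ± 0.15) fell as well. In PARP1 knockdown 11 fell and 1 rose with a median of -0.87, beside 32.2% of all tested genes lower and 27.1% higher. The smallest adjusted p belonged to TGFBR2 (-1.64 ± 0.17), SMURF1 (-1.42 ± 0.15) and SMAD2 (-1.33 ± 0.18), while the ligand TGFB1 rose (0.57 ± 0.13). With length and GC trends removed 4 were lower in TRIM28 knockdown and 6 in PARP1 knockdown, and 0 were higher in either. Beside these, 10.5% and 22.6% of all tested genes were lower, and 10.9% and 23.9% higher. SMAD2 (-0.29) and TGFB1 (-0.16) did not pass then, and TGFB1 did not pass with library totals (0.23).

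**Figure D5:**
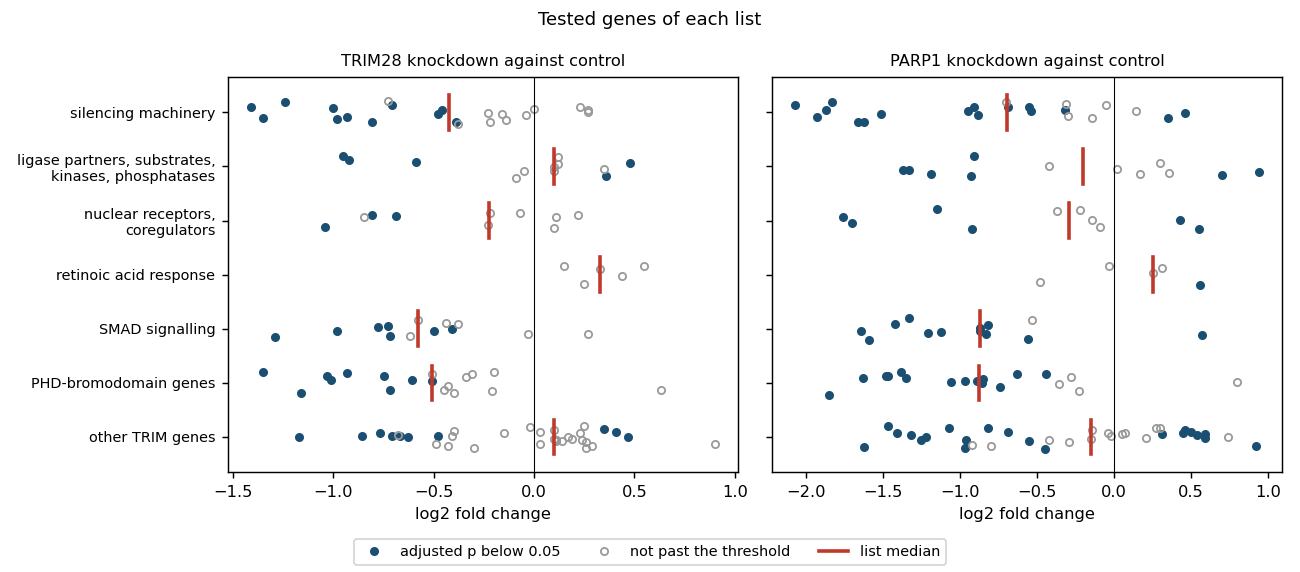
Log2 fold change of every tested gene in 7 lists in TRIM28 knockdown against control (left) and PARP1 knockdown against control (right); filled points passed the threshold, open points did not, and red bars are list medians. The medians of the silencing machinery, SMAD signalling and PHD-bromodomain lists are -0.43, -0.58 and -0.51 on the left and -0.70, -0.87 and -0.87 on the right.

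Of 18 other genes with a PHD finger beside a bromodomain, the chromatin-reading pair of domains that TIF1 proteins carry, 9 fell in TRIM28 knockdown and the other 9 did not pass, with a median of -0.51, beside 17.5% of all tested genes lower. The acetyltransferases CREBBP (-1.03 ± 0.16) and EP300 (-1.16 ± 0.20) and BAZ2A of the nucleolar remodelling complex (-0.93 ± 0.16) had the smallest adjusted p. In PARP1 knockdown 14 fell, beside 32.2% of all tested genes lower, with a median of -0.87 and with BAZ2A at -1.48 ± 0.16, CREBBP at -1.47 ± 0.16 and EP300 at -1.63 ± 0.21. With 1 library left out, the count lower in TRIM28 knockdown was 6 without TRIM28 knockdown replicate 1, control replicate 1 or control replicate 2. It was 11 without control replicate 3. Over all tested genes, the 2374 lower became 1883, 1225, 1404 and 2769 without those libraries, in that order. With length and GC trends removed, 7 were lower in TRIM28 knockdown, beside 10.5% of all tested genes. In PARP1 knockdown 9 were lower and 2 higher then, beside 22.6% lower and 23.9% higher over all tested genes. Their median exon length was 9234 bases, in the ninth length class with TRIM24 and TRIM33, where, before that removal, 28.7% of genes were lower in TRIM28 knockdown and 48.7% in PARP1 knockdown.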

How the data were processed

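Polyadenylated RNA of 9 libraries was sequenced on an Illumina NovaSeq instrument with a directional kit, per the labels' protocols. The submitters' processing notes name GRCh38, STAR 2.7.9a, Trim Galore 0.6.6, FastQC 0.11.9 and featureCounts 2.0.1, and DESeq2 1.30.0 under R 4.0.3. The sources used here do not name the annotation release or say whether counting used strand. Per the file headers, the deposited values are raw read counts and FPKM for each gene. Each FPKM equalled the count over exon length and the table's library total, within rounding. Without strand, reads of genes that overlap on opposite strands cannot be told apart.

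The members and gene lists were chosen with earlier results of these data known. The counts went into edgeR 4.0.16 under R 4.3.3 (quasi-likelihood test, TMM factors, package filter on low counts) in 1 fit of 9 libraries and 3 groups with 6 residual degrees of freedom. P-values are two-sided and adjusted by the Benjamini-Hochberg method over 13562 genes, with a threshold of 0.05. Standard errors come from the quasi-likelihood statistic, and intervals are at 95%. Total counts of 11963110 to 20224374 per library limit the paralogs to between 13 and 117 counts each. Poisson intervals cover counting error only. Alternatives were DESeq2 1.42.0, its size factors, library totals, no filter or a mean CPM of at least 1, limma 3.58.1 on log2(FPKM + 1) or log2(FPKM + 0.1), each pair of groups fitted by itself, a block for replicate number, and fits that drop 1 library at a time. Dropping libraries was applied to the gene lists after seeing the data. Length and GC trends of each library were removed by lowess (span 0.3), with GC of the longest GENCODE 29 transcript known for 13390 tested genes. A limma fold change is on a log2(FPKM + pseudocount) scale, which understates low genes. All replicate pairs differed by more than sampling noise in a chi-square test of their counts. Beforehand, edgeR was tried on counts simulated for TRIM28 knockdown against control over 13562 genes, with no length trend put in. It found 22.2% of genes changed 1.5-fold, 60.9% of those changed 2-fold and 91.2% of those changed 4-fold, and made 6 false calls. With a length trend put into the simulated TRIM28 knockdown libraries it made 41 false calls, and 11 once that trend was removed. These shares are over changed genes of all levels, not at the low counts of the paralogs.

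Named genes were the 4 members, PARP1, up to 3 genes per direction with the smallest adjusted p from each list (5 for other TRIM genes, or the single smallest where none passed), the 5 genes most like each member, and overlapping or nearest genes; 1 gene that this rule names is not reported here. Figures used Python 3.11.15 and matplotlib 3.10.9.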

Additional observations from a re-analysis of the deposited data

How the results depend on the processing

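Over 807 alternatives in all, 655 kept their direction and side of the threshold or their count, 117 counts moved by over 1.5 times, 3 values gained a call, 21 lost one and 11 changed sign. TRIM28 kept its fall in TRIM28 knockdown under all 22 alternatives (-2.91 to -2.62), and the cause of the changes below was not tested. In TRIM28 knockdown, TRIM33 passed with those groups alone (-0.72, adjusted p = 0.0414, edgeR), and leaving out libraries gave -0.90 to -0.54. TRIM66 changed sign there with length trends removed (0.07), with length and GC trends removed (0.06) and with a replicate block on top of both (0.05). In PARP1 knockdown, those settings in that order ended the calls of TRIM24 (-0.53, -0.15 and -0.16), TRIM33 (-0.49, -0.18 and -0.18) and TRIM66 (-0.25, -0.17 and -0.19). Leaving out libraries gave -1.45 to -0.78 for TRIM24, -1.34 to -0.83 for TRIM33 and -1.28 to -0.57 for TRIM66. TRIM28 in PARP1 knockdown was -0.01 with library totals and in all 3 limma fits, -0.22 with length and GC trends removed, -0.21 with the replicate block as well, 0.28 without the filter on low counts, 0.29 with those groups alone, and 0.29 to 0.43 when libraries were left out. Between the knockdowns, TRIM33 was -0.03 with length and GC trends removed and -0.01 with the block as well.

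Genes past the threshold in TRIM28 knockdown numbered 3768. There were 2347, 2112 and 1069 by limma with pseudocounts of 1 and 0.1 and with no FPKM filter, and 1552 (without control replicate 1) to 4936 (without control replicate 3) with a library left out. Dropping TRIM28 knockdown replicate 2 gave 1981, and dropping control replicate 2 gave 1857. The 3407 between the knockdowns became 63 by limma with no filter, 1983 with length and GC trends removed, 2077 with the block as well, and 1669 (without TRIM28 knockdown replicate 1) to 4726 with a library left out, with 1722 and 2171 without PARP1 knockdown replicates 3 and 2. Leaving aside the other TRIM genes, the lists held 22, 12, 10, 5, 13 and 18 tested genes. Of these, 20 passed between the knockdowns, beside 25.1% of all tested genes. With length and GC trends removed 12 passed, beside 1983 of all 13562 tested genes. A replicate block alone gave 4085 genes in TRIM28 knockdown and changed no call of a family gene. Correlations of same-numbered libraries were 0.0113 to 0.141 between a knockdown and control, and -0.0814 to 0.00862 between the knockdowns. Those of differently numbered libraries were -0.164 to 0.118, and not every library correlated best with its own number. Values this small cannot settle whether replicate numbers pair the libraries. An FPKM filter at a mean of 1 left TRIM24, TRIM33 and TRIM66 with no limma value. With 13 to 117 counts per library, depth limits the paralogs.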

Other observations

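Of 72 other TRIM genes in the table, taken by symbol alone, 35 were tested. In TRIM28 knockdown 7 fell, 3 rose and 25 did not pass, with a median log2 fold change of 0.10 beside -0.02 over all tested genes, and these counts are near the 17.5% lower and 10.3% higher over all tested genes. TRIM44 stood at 18.5 ± 1.31 CPM in TRIM28 knockdown and 41.6 ± 12.8 CPM in control (SD, n = 3 each), a log2 fold change of -1.17 ± 0.18. TRIM56 (-0.86 ± 0.21), TRIM39 (-0.67 ± 0.20), TRIM5, a retrovirus restriction factor (-0.71 ± 0.22), and TRIM4 (-0.48 ± 0.16) fell too. The antibody receptor TRIM21 (0.41 ± 0.13), TRIM47 (0.47 ± 0.15) and TRIM16 (0.35 ± 0.13) rose, and whether TRIM16 shares reads with TRIM16L was not tested. The groups overlapped for TRIM47, at 36.3 ± 6.91 CPM in TRIM28 knockdown and 26.3 ± 3.75 CPM in control (SD, n = 3 each). With library totals 0 of the 35 were higher and 6 were lower, beside 3.34% higher and 21.1% lower over all tested genes. With length and GC trends removed 7 were higher and 3 lower, beside 10.9% higher and 10.5% lower over all tested genes. Under that removal TRIM21 (0.17), TRIM47 (0.18), TRIM5 (-0.41) and TRIM4 (-0.28) did not pass. Leaving out 1 library moved the lower count between 2 (without TRIM28 knockdown replicate 2 or control replicate 1) and 8, with 3 without TRIM28 knockdown replicate 3 or control replicate 2. It moved the higher count between 0 (without TRIM28 knockdown replicate 2, control replicate 1 or control replicate 2) and 6 (without control replicate 3), with 1 without TRIM28 knockdown replicate 1 or 3.

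In PARP1 knockdown 13 of the 35 fell, 8 rose and 14 did not pass, with a median of -0.15 beside -0.07 and with 32.2% of all tested genes lower and 27.1% higher. The smallest adjusted p among the falls belonged to TRIM44 (-1.47 ± 0.18), TRIM39 (-1.62 ± 0.22), TRIM56 (-1.41 ± 0.22), TRIM4 (-1.07 ± 0.17) and TRIM25, the ligase that activates RIG-I (-0.97 ± 0.17). Among the rises it belonged to TRIM47 (0.92 ± 0.15), TRIM11 (0.54 ± 0.14), TRIM21 (0.46 ± 0.13), TRIM16 (0.45 ± 0.13) and TRIM3 (0.59 ± 0.18). With library totals 1 was higher and 16 were lower, beside 14.9% higher and 42.8% lower over all tested genes. TRIM11, TRIM21, TRIM16 and TRIM3 did not pass then (0.12 to 0.26). With length and GC trends removed 10 were higher and 9 lower, beside 23.9% higher and 22.6% lower over all tested genes. TRIM47 (0.12), TRIM21 (0.09) and TRIM25 (-0.35) did not pass under that removal.

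The pattern of TRIM28 over the 9 libraries was most like that of LIMK1, a kinase that inactivates cofilin (Pearson r = 0.954 among 6947 genes with a mean of at least 10 CPM). LIMK1 fell in TRIM28 knockdown (log2 fold change -0.95 ± 0.14) and rose in PARP1 knockdown (0.54 ± 0.14). PPARD, RFC5, ATG13 and HMOX1 followed (r = 0.892 to 0.855). TRIM24 was most like SMC4, a condensin subunit (r = 0.976), then SPAG9, VCAN, FAM126A and ATP13A3. TRIM33 was most like CDK15 (r = 0.966), then UCHL5, PIGK, PRPF38B and B4GALT4, and TRIM66 was most like MSMO1, a sterol oxidase (r = 0.927), then RLIM, EPRS1, PRRC2C and NUDT16. These are descriptions over 9 libraries that share depth and group differences.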
